A study of Mus musculus with 12 samples.

Results

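The heat shock chaperones described here are 9 genes of the mouse, Hspa1a, Hspa1b, Hspa8, Hspa5, Dnajb1, Hsph1, Hsp90aa1, Hsp90ab1 and Hspb1. They were found by their symbols among the 40853 gene symbols of the deposited tables, and all 9 were present. The set was selected on readout in part: Hspa1a was chosen because it differed between the genotypes in the same direction in both cell types, so its genotype values, and those of its near-identical copy Hspa1b, are given as a description with no test. The libraries are RNA-seq of microglia and astrocytes sorted by flow cytometry from the whole brain of wild-type (WT) mice and of Kpna4 knockout (KO) mice. Kpna4 encodes importin α4, an adaptor that carries proteins into the nucleus. All mice, WT and KO, were 8 to 9 weeks old and had been given 1 mg/kg of lipopolysaccharide (LPS) into the peritoneum 20 h earlier, so every group shares the inflammatory stimulus. Untreated mice were not analysed here, and the sources used here give neither the Kpna4 allele nor the sorting gates. Each of 6 animals, 3 per genotype, gave 1 microglia and 1 astrocyte library, which makes 4 groups of 3 libraries from separate animals.

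Chaperones bind unfolded or newly made proteins and keep them from aggregating. The cytosolic HSP70 proteins do this in cycles of ATP hydrolysis that are started by J-domain proteins such as DNAJB1 and ended by nucleotide exchange factors such as HSPH1, and many of their clients are passed on to the HSP90 proteins. Under heat or other protein damage the transcription factor HSF1 binds heat shock elements, which are inverted repeats of the letters GAA and TTC, and induces genes such as Hspa1a, Hspa1b, Dnajb1 and Hspb1. Hspa8 and Hsp90ab1 are the constitutive members of their families, and Hspa5 (BiP) works in the lumen of the endoplasmic reticulum, where it belongs to the unfolded protein response. In brain cells prepared by enzymatic digestion, immediate early genes and heat shock genes are known as transcripts that can rise during handling. Per the labels' protocols, the brains were minced and digested on a heated dissociator before sorting.

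Upstream sequence was read to show what the inducible members share outside the counts. RefSeq windows of 300 bases (250 before and 50 after the annotated start, GRCm38.p6) were at hand for 6 of the 9 members. The last 130 bases before the start are printed for 5 of them, 5′ to 3′ on the strand of the gene, with motif matches in capitals; all lie upstream of the first exon. The windows of Hspa1a (chr17:34972157-34972286, minus strand) and Hspb1 (chr5:135887789-135887918, plus strand) hold 2-unit heat shock elements, that of Hspa5 (chr2:34771960-34772089, plus strand) an ER stress element.
Hspa1a: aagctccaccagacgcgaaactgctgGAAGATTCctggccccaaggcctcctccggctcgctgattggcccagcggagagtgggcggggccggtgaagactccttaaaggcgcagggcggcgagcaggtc
Hspa1b: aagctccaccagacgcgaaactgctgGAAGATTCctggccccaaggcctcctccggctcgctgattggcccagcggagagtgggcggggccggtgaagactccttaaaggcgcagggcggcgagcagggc
Hsph1: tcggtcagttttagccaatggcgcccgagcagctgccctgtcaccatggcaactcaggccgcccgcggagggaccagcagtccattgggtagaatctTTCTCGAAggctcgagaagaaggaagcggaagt
Hspb1: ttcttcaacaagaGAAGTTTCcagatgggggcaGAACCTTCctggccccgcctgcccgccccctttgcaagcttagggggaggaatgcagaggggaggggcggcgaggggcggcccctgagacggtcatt
Hspa5: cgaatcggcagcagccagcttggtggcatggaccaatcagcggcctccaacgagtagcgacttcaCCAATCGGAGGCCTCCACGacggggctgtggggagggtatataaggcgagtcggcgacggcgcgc

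The stretches of Hspa1a and Hspa1b (chr17:34959239-34959368, minus strand) were identical at 129 of 130 bases, and their whole windows at 296 of 300. Both genes carried the element GAAGATTC, whose first base lies 104 bases before the start. Hsph1 (chr5:149636337-149636466, minus strand, the first of 2 windows listed) carried TTCTCGAA from base -33 and, after its start, the longer TTCTGGAAAGTTC at base 37. Hspb1 had a pair of elements, GAAGTTTC at -117 and GAACCTTC at -97. The pattern searched was GAANNTTC or TTCNNGAA, each of which reads the same on both strands, and it occurred in 15.1% of the 32851 windows of all genes, so such a match is common. The 3-unit form (GAANNTTCNNGAA or TTCNNGAANNTTC, which contains 2 overlapping 2-unit matches) occurred in 0.603% of windows. The ER stress element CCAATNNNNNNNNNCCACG, searched on both strands and found in Hspa5 from base -65 as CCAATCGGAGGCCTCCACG, occurred in 0.119%. The windows of Dnajb1 and Hspa5 held no heat shock element of these letters, and Hspa8, Hsp90aa1 and Hsp90ab1 had no window.

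Hspa1a and Hspa1b also share much of their transcript. Of the 50-base stretches of the Hspa1a transcript, 58.8% occur in that of Hspa1b, and none in that of Hspa8. Reads from these stretches fit both genes and were divided by an estimate, so each gene's own level is uncertain and their sum, given below beside them, is the firmer value.

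The libraries held 10.3 to 14.5 M counts in microglia and 10.7 to 15.6 M in astrocytes. The sorted types carried their markers: 9 microglia markers (Cx3cr1, P2ry12, Tmem119 and others) summed to 14260 to 18796 counts per 1000000 of the library total (CPM) in microglia and to 210 to 603 in astrocytes, and 9 astrocyte markers to 16202 to 21533 CPM in astrocytes and 329 to 747 in microglia. No marker of either list was at 0 throughout a group of the other type. Oligodendrocyte markers were present at 295 to 1776 CPM in microglia and 920 to 4222 in astrocytes. Kpna4 was counted at 67.9, 96.4 and 89.0 CPM in WT microglia, 78.6, 68.5 and 59.8 in KO microglia, 40.1, 51.1 and 57.6 in WT astrocytes, and 69.0, 43.8 and 80.2 in KO astrocytes. These whole-gene values do not check the genotype labels, since no source used here names the deleted part of the gene, and "KO" means the libraries labelled so.

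One library stood apart for the chaperones. In microglia, WT replicate 1 was the highest of the 6 libraries for 9 of 9 members, while 19.3% of the 14191 genes tested were highest there. Against the mean of the other WT microglia libraries it held 12.4 times as much Hspb1, 3.94 times as much Hspa1a, 3.68 times as much Hspa1b, 2.68 times as much Dnajb1, and between 1.35 and 1.84 times as much of the other 5. It also had counts for 20905 genes, against 16827 to 17650 in the other microglia libraries. Its 16 immediate early genes summed to 16301 CPM, against 8706 and 10132 in the other WT libraries and 13655 to 15059 in KO, and its unfolded protein response regulators to 1900 CPM against 1113 to 1299 in the other 5 microglia libraries. Their part in the results below was not tested, and microglia values that moved by over 1.5 times without this library are given both ways. In the astrocytes of the same animal, 4 of 9 members were highest of the 6 libraries, as were 15.5% of the genes tested.

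**Figure D1:**
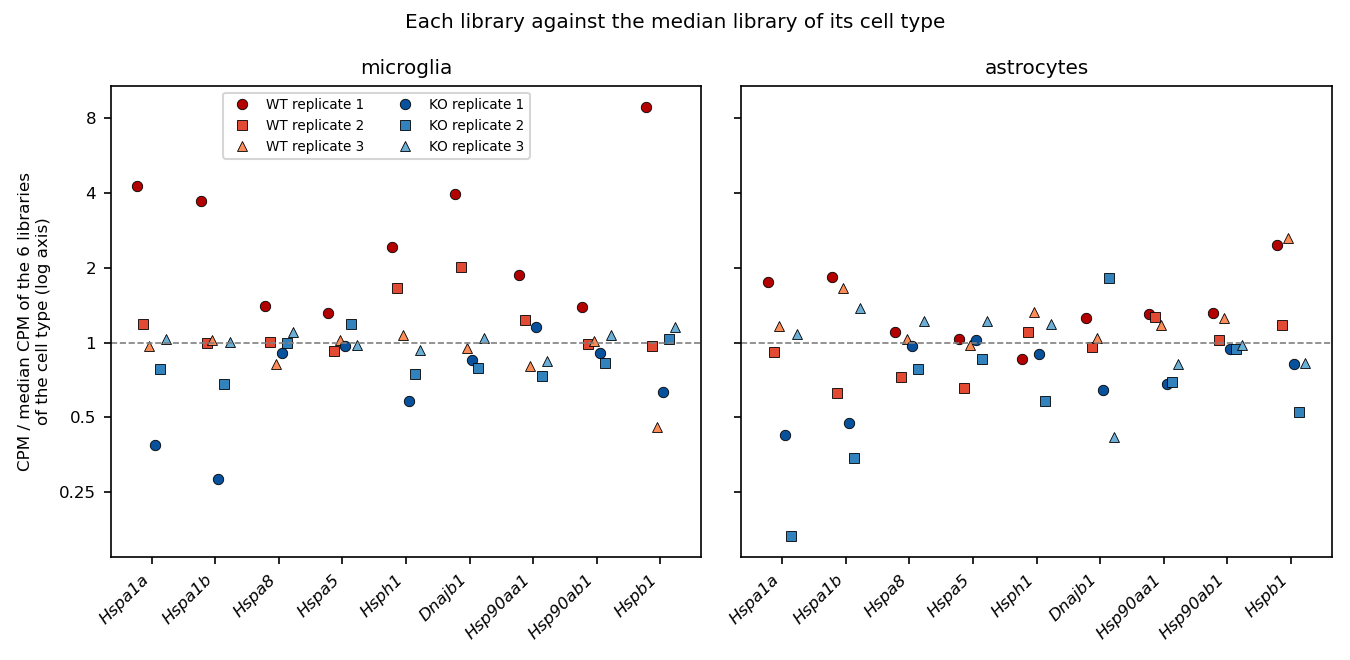
Each point is the CPM of 1 library divided by the median CPM of the 6 libraries of its cell type (log axis), for the 9 chaperone genes in microglia (left) and astrocytes (right); red marks are WT and blue marks KO animals, and the marker shape is the replicate. In microglia, WT replicate 1 is the top point of every gene, from 12.4 times the mean of the other WT libraries for Hspb1 to 1.35 times for Hspa5.

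The differences that passed a test lay between the cell types. Of the 9 genes, 7 were higher in microglia and none lower by edgeR's quasi-likelihood test at an adjusted p under 0.05, among 17294 genes of which 64.6% were called, 28.2% as higher and 36.4% as lower in microglia. The median log2 difference of the 9 genes was 2.22, that of all genes tested -0.19. With library totals in place of TMM scaling (a factor that aligns the bulk of the genes) the all-gene median was 0.09. The same 7 members were called then, and of all 17294 genes 5809 were called higher and 5520 lower. This contrast, microglia minus astrocytes with both genotypes weighted equally, was not used to choose the genes. In bulk libraries, fewer cells of a type and less RNA per cell cannot be told apart. Abundant non-coding transcripts took 11.8 to 15.4% of the counts in microglia and 26.2 to 39.5% in astrocytes, which lowers every other CPM in astrocytes.

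The inducible HSP70 genes showed the widest gap of the set. Hspa1a was at 10984, 3063 and 2508 CPM in WT microglia and at 1003, 2032 and 2663 in KO microglia. In astrocytes it was at 122, 64.1 and 80.9 CPM in WT and at 29.7, 11.6 and 75.2 in KO. Every microglia library was thus above every astrocyte library, and within each cell type the WT and KO libraries overlapped. In single animals Hspa1a was 31.0 to 175 times as high in microglia as in astrocytes, with a median ratio of 41.6 over 6 animals. The fitted log2 difference was 5.57 (SE 0.52; edgeR adjusted p 2.91e-07). Without the WT replicate 1 animal, and in the other alternatives run, it lay between 5.17 and 6.03.

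Hspa1b followed its copy. It was at 10352, 2781 and 2850 CPM in WT microglia and 790, 1898 and 2800 in KO microglia, against 133, 45.4 and 120 in WT astrocytes and 34.3, 24.8 and 98.9 in KO astrocytes. The gap between the cell types was again wider than the spread within them, with ratios of 23.1 to 77.9 per animal and a log2 difference of 5.22 (SE 0.52; edgeR adjusted p 5.37e-07). The 2 genes together, where the division of shared reads plays no part, gave 5.38. They took 0.179 to 2.13% of all counts in microglia and 0.00365 to 0.0255% in astrocytes, with the top share in WT replicate 1 of microglia.

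**Figure D2:**
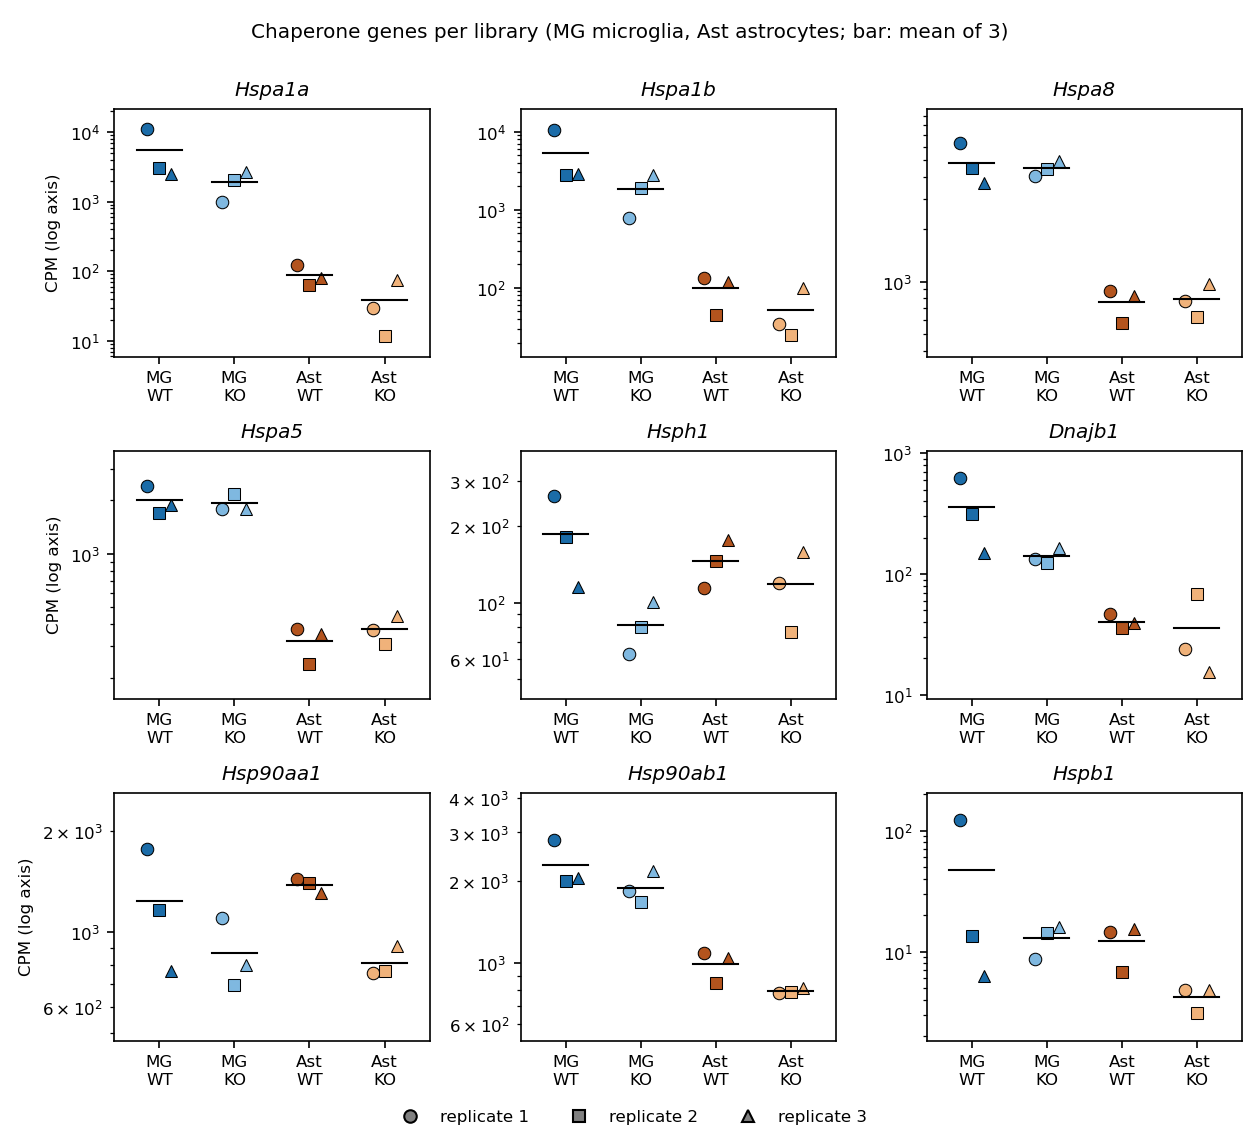
CPM of the 9 chaperone genes (log axes, which differ in range from gene to gene) in the 3 libraries of each of 4 groups, microglia (MG) and astrocytes (Ast), WT and KO; marker shapes are replicates and the bar is the mean of 3. Hspa1a and Hspa1b lie at 790 CPM or more in microglia and at 133 or less in astrocytes, whereas Hsph1 and Hsp90aa1 lie at similar heights in both.

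The constitutive HSP70 genes were higher in microglia too, and more evenly. Hspa8, the cognate HSP70 that also uncoats clathrin vesicles, was at 6286, 4507 and 3684 CPM in WT microglia and 4086, 4474 and 4933 in KO microglia. In astrocytes it was at 879, 581 and 826 CPM in WT and 774, 625 and 973 in KO. Microglia were 4.46 to 7.76 times as high in all 6 animals, and the log2 difference was 2.32 (SE 0.19; edgeR adjusted p 6.12e-08). Hspa5, the HSP70 of the endoplasmic reticulum, was at 2418, 1705 and 1885 CPM in WT microglia, 1787, 2176 and 1790 in KO microglia, 377, 239 and 354 in WT astrocytes and 373, 311 and 444 in KO astrocytes. Its ratio per animal was 4.03 to 7.14 and its log2 difference 2.22 (SE 0.17; edgeR adjusted p 3.36e-08). For both genes the cell types did not overlap, and the ratio varied less between animals than that of Hspa1a.

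The partners of HSP70 differed from each other. Dnajb1, the J-domain protein that delivers clients to HSP70, was at 623, 315 and 150 CPM in WT microglia and 134, 124 and 164 in KO microglia, against 46.7, 35.7 and 39.0 in WT astrocytes and 24.0, 67.8 and 15.6 in KO astrocytes. It was higher in microglia in all 6 animals, but by ratios that ran from 1.83 in KO replicate 2 to 13.3 in WT replicate 1; the log2 difference was 2.24 (SE 0.41; edgeR adjusted p 2.33e-04). Hsph1, the HSP110 protein that exchanges the nucleotide on HSP70, was at 262, 180 and 115 CPM in WT microglia and 63.1, 80.6 and 101 in KO microglia. In astrocytes Hsph1 was at 114, 146 and 176 CPM in WT and 120, 77.0 and 158 in KO. Its cell types overlapped, the ratio was above 1 in 3 of 6 animals, and the log2 difference of -0.34 (SE 0.22; edgeR adjusted p 0.185) did not pass the test. Without the WT replicate 1 animal it was -0.62 (edgeR adjusted p 0.0205), which is a call as lower in microglia.

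The cytosolic HSP90 genes, whose proteins hold kinases and steroid receptors in an activatable state, also parted. The constitutive Hsp90ab1 was at 2806, 1996 and 2042 CPM in WT microglia and 1831, 1669 and 2164 in KO microglia, and at 1088, 846 and 1041 in WT astrocytes and 777, 783 and 812 in KO astrocytes. Its ratio was the steadiest of the 9 genes, 1.96 to 2.67 over 6 animals, with a log2 difference of 0.95 (SE 0.17; edgeR adjusted p 1.49e-04). The inducible Hsp90aa1 was at 1775, 1168 and 765 CPM in WT microglia, 1100, 697 and 801 in KO microglia, 1440, 1407 and 1309 in WT astrocytes, and 759, 768 and 911 in KO astrocytes. Here the cell types overlapped, microglia were higher in 2 of 6 animals, and the log2 difference of -0.31 (SE 0.21; edgeR adjusted p 0.205) did not pass. Without the WT replicate 1 animal it was -0.52 (edgeR adjusted p 0.0335), again a call as lower in microglia.

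Hspb1 (HSP25), a small heat shock protein that holds unfolded proteins without ATP, had the lowest counts of the set, 83 to 1619 per microglia WT library and 33 to 75 per astrocyte KO library. It was at 122, 13.4 and 6.31 CPM in WT microglia, 8.72, 14.3 and 16 in KO microglia, 14.4, 6.83 and 15.4 in WT astrocytes and 4.76, 3.07 and 4.82 in KO astrocytes. A single microglia library was far above the rest, and the other 5 overlapped with the WT astrocytes. The log2 difference between the cell types was 1.57 (SE 0.57; edgeR adjusted p 0.0249), but 0.44 (adjusted p 0.355) without the WT replicate 1 animal, 0.98 (adjusted p 0.104) with the animal as a block, and 0.87 (adjusted p 0.265) by limma voom with quality weights. The call of Hspb1 thus varied with the libraries used and, on the same libraries, with the model and the tool. In the KO libraries alone its log2 difference was 1.32 (edgeR adjusted p 0.0464), and in the WT libraries alone 1.88 (edgeR adjusted p 0.115). Without the WT replicate 1 animal 6 members were called higher and 2, Hsph1 and Hsp90aa1, lower in microglia. Of all 17848 genes tested in that fit 4336 were called higher and 5930 lower.

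**Figure D3:**
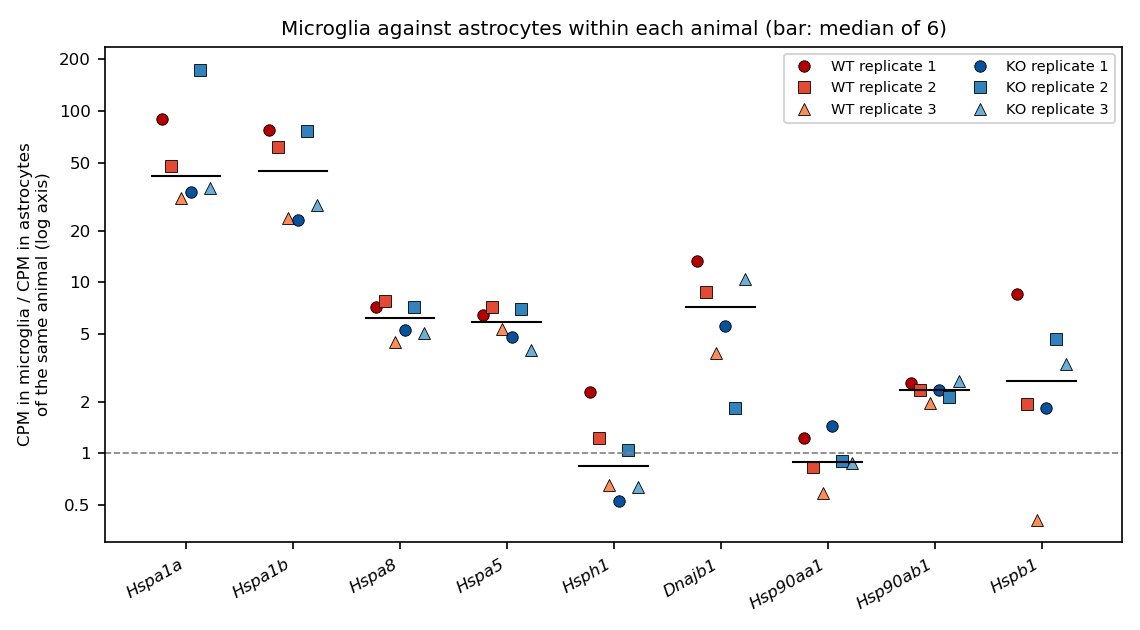
Ratio of the CPM in microglia to the CPM in astrocytes of the same animal (log axis) for the 9 chaperone genes; each point is 1 of 6 animals, red WT and blue KO, and the bar is the median. For 6 genes all animals lie above 1, with medians from 2.36 for Hsp90ab1 to 44.8 for Hspa1b; Hspb1, Hsph1 and Hsp90aa1 have animals on both sides of 1.

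The rest of the chaperone machinery did not share one direction between the cell types. Of 109 genes in 8 companion lists 103 were tested, and edgeR called 56 as higher and 14 as lower in microglia. Over all 17294 genes tested 28.2% were called higher and 36.4% lower, the background for each list below. Among the other cytosolic HSP70, HSP110 and HSP40 genes, 4 of 16 were higher and 5 lower (median log2 difference -0.09). Both counts are near the shares over all genes. The higher ones included Hspa4, an HSP110 protein, at 0.92 (SE 0.13; adjusted p 2.49e-05). The lower ones were led by Hspa2, an HSP70 known from spermatogenesis, at -5.23 (SE 0.31; adjusted p 2.11e-09), Hspa4l at -3.37 (adjusted p 1.19e-08) and Hspa12a at -2.89 (adjusted p 2.26e-07). Hspa2 was at 210 to 360 CPM in the 6 astrocyte libraries and at 3.51 to 15.1 in microglia. Astrocytes thus had less Hspa1a, Hspa1b and Hspa8 but more Hspa2 and Hspa4l than microglia.

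The small heat shock proteins went mostly against Hspb1. Of 9 genes listed by symbol 5 had enough counts to be tested. Of these 4 were lower in microglia and 1 higher, with a median of -2.20. The lower ones include Hspb11, which is in the list by its symbol and encodes an intraflagellar transport protein. Cryab (αB-crystallin, a holdase found in glia) was at 29.4 to 41.1 CPM in astrocytes and 2.09 to 9.96 in microglia, a log2 difference of -3.28 (SE 0.32; edgeR adjusted p 4.90e-07). Hspb8, a partner of BAG3 in selective autophagy, was lower by -3.18 (SE 0.59; adjusted p 2.62e-04) and Hspb6 by -2.20 (adjusted p 4.45e-04). Hspb3 was the one higher gene, at 1.60 to 7.07 CPM in microglia and at 0 in 4 of 6 astrocyte libraries. Oligodendrocyte markers, a cell type in which Cryab is also abundant, were higher in the astrocyte libraries in all 6 animals, and their part in the Cryab values was not tested.

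Genes of the endoplasmic reticulum were mostly higher in microglia, as Hspa5 was. Of 16 other chaperones and folding enzymes of this compartment 11 were higher and 1 was lower in microglia (median 1.46). Pdia6, a protein disulfide isomerase, was higher by 1.99 (SE 0.15; edgeR adjusted p 2.83e-08), Calr, the lectin chaperone calreticulin, by 1.86 (adjusted p 3.73e-08) and Sdf2l1, a cofactor of BiP, by 3.84 (adjusted p 8.45e-08). The lower one was Serpinh1 (HSP47), the collagen chaperone, at -4.48 (adjusted p 2.02e-07). Of 10 regulators of the unfolded protein response 9 were higher and none lower (median 1.72), among them the sensor Atf6 at 1.73 (adjusted p 4.27e-08) and the transcription factors Xbp1 at 1.70 (adjusted p 1.64e-07) and Atf4 at 1.95 (adjusted p 1.92e-06).

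The regulators and co-chaperones of the cytosol were mixed. Hsf1, the factor of the heat shock response, was at 30.9 to 39.2 CPM in microglia and 12.1 to 17.9 in astrocytes, a log2 difference of 1.09 (SE 0.18; edgeR adjusted p 1.14e-04). Hsf2, its relative, was lower in microglia at -0.98 (SE 0.19; adjusted p 3.29e-04), so that the 2 factors stood on opposite sides. Of 20 co-chaperones of HSP70 and HSP90, 5 were higher and 2 lower, where 28.2% and 36.4% of all genes tested were. With library totals in place of TMM the co-chaperone counts were 9 and 1. Over all 17294 genes tested 5809 were then called higher and 5520 lower. Fkbp5, the steroid receptor co-chaperone induced by glucocorticoids, was higher by 1.76 (SE 0.15; adjusted p 1.31e-07), Cdc37, the kinase adaptor of HSP90, by 1.12 (adjusted p 1.22e-05) and Chordc1 by 0.73 (adjusted p 0.00431), whereas Bag2, an inhibitor of the ubiquitin ligase CHIP, was lower at -2.77 (adjusted p 9.77e-05). Another list of 16 genes held chaperonin subunits with mitochondrial chaperones, their cofactors and proteases. In it 9 were higher and 1 lower (13 and 1 with library totals). Among them were Cct5 at 0.83, Cct3 at 1.12 and Cct8 at 0.86 as subunits of the TRiC ring, and the protease Clpp at -1.06.

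Immediate early genes, which respond within minutes to stimulation and to handling of cells, were higher in microglia for 16 of 16 genes, with a median log2 difference of 4.16. The smallest p were those of Socs3 at 5.35 (SE 0.27, edgeR adjusted p 6.06e-10), Dusp1 at 4.01 (adjusted p 1.08e-09) and Btg2 at 4.07 (adjusted p 2.11e-09). The largest log2 difference of the list was 5.64, in another gene. The list summed to 8706 to 16301 CPM in microglia and 385 to 717 in astrocytes. Its part in the gap of Hspa1a, Hspa1b and Dnajb1 between the cell types was not tested.

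**Figure D4:**
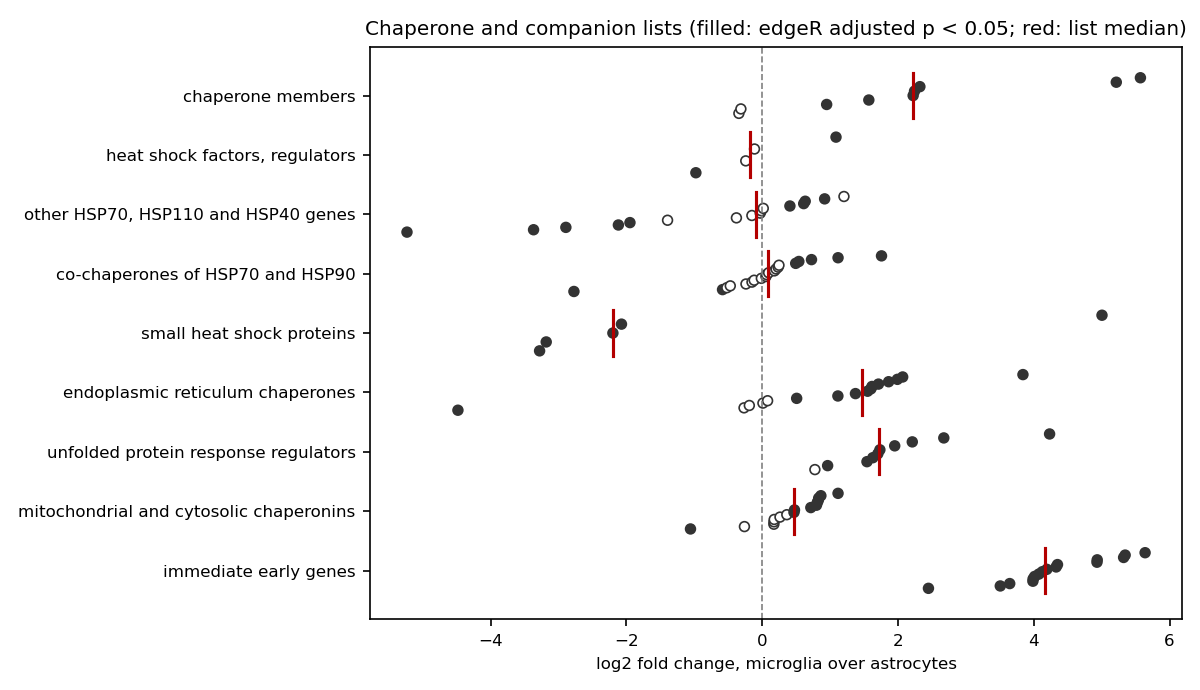
Log2 fold change of microglia over astrocytes for each tested gene of the 9 chaperone members and of 8 companion lists; filled points have an edgeR adjusted p under 0.05 and the red line is the median of the list. The members (median 2.22) and the endoplasmic reticulum chaperones (1.46) lie mostly to the right of 0. So do the unfolded protein response regulators (1.72) and the immediate early genes (4.16). Of the 5 genes listed as small heat shock proteins 4 lie to the left.

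Between the genotypes, none of the 7 members read from the test passed in either cell type. The fitted level was lower in KO for 9 of 9 members in microglia, for 6 of 9 there without WT replicate 1, and for 6 of 9 in astrocytes. The same fit called 0% of 14191 genes in microglia and 0% of 15755 in astrocytes by edgeR, with 1053 and 373 genes at an unadjusted p under 0.05; DESeq2 called 41 and 4. The median log2 fold change of the 9 members was -1.22 in microglia and -0.21 in astrocytes, against -0.00129 and -0.00684 over all genes tested. Without WT replicate 1 the median of the members in microglia was -0.18. Since the set was put together with this contrast in view, these counts and medians are a description.

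Hspa1a, the gene chosen on this contrast, had a mean of 5518 ± 4741 CPM in the WT microglia libraries and 1899 ± 838 in the KO ones (SD, n = 3 each), a fitted log2 fold change of -1.59 (SE 0.48). In astrocytes its means were 88.9 ± 29.6 CPM in WT and 38.8 ± 32.7 in KO (SD, n = 3 each), a log2 value of -1.14 (SE 0.47). In both cell types 8 of the 9 pairings of a KO with a WT library had the KO library lower, and the exception involved KO replicate 3, which was within the WT range. Without WT replicate 1 the value in microglia was -0.58. In astrocytes it was -2.0 without KO replicate 3 and -0.76 without KO replicate 2, the library at 11.6 CPM. For Hspa1b the log2 value was -1.59 (SE 0.50) in microglia, or -0.65 without WT replicate 1, and -0.83 (SE 0.46) in astrocytes. The sum of both genes gave -1.59 and -0.97.

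**Figure D5:**
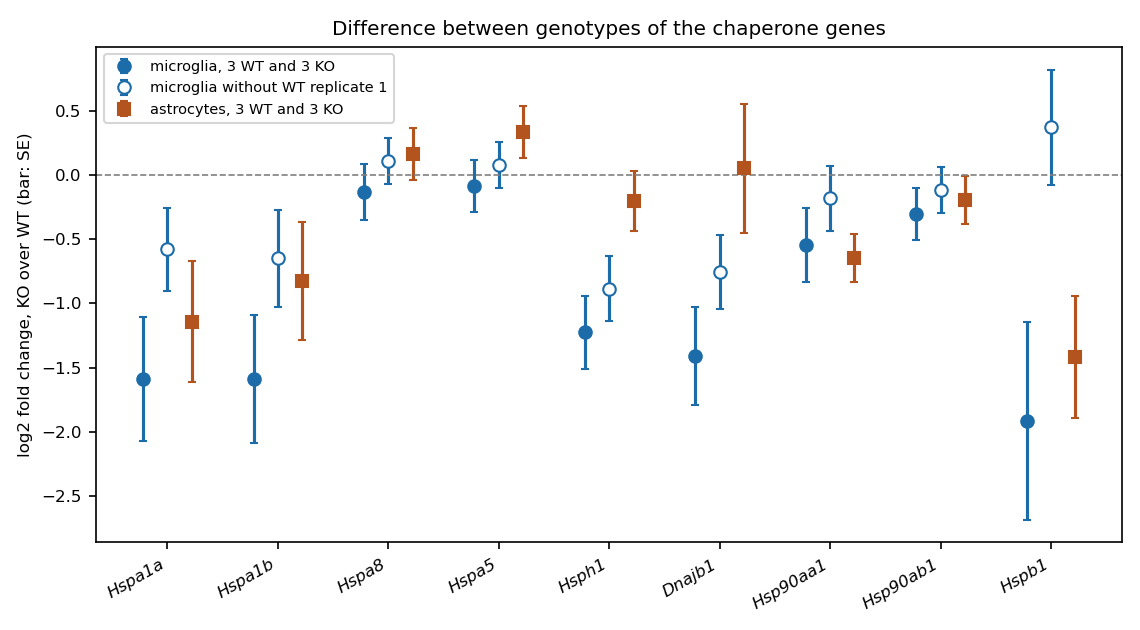
Fitted log2 fold change, KO over WT, of the 9 chaperone genes in microglia (filled circles), in microglia without WT replicate 1 (open circles) and in astrocytes (squares); bars are standard errors. Leaving out WT replicate 1 moves all 9 genes upward, and Hspb1 from -1.92 to 0.37.

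Among the partners of HSP70 the genotypes were apart for Hsph1 in microglia. For Hsph1 the 3 KO libraries (63.1 to 101 CPM) lay below the 3 WT libraries (115 to 262 CPM), and the log2 fold change was -1.22 (SE 0.28; edgeR adjusted p 0.439). Without WT replicate 1 it was -0.89, with an edgeR adjusted p of 0.994. With all 6 microglia libraries DESeq2 called Hsph1 at an adjusted p of 0.0141, and DESeq2 was not run without WT replicate 1. Hsph1 was the only one of 9 members whose KO microglia were all below all WT microglia, where 6.57% of all tested genes had that order. In microglia the log2 value of Dnajb1 was -1.41 (SE 0.38; edgeR adjusted p 0.539), or -0.76 without WT replicate 1, and its lowest WT library, at 150 CPM, lay inside the KO range. In astrocytes neither gene passed: the log2 fold change was -0.21 (SE 0.23) for Hsph1 and 0.05 (SE 0.50) for Dnajb1, both at an edgeR adjusted p of 0.999. The value of Dnajb1 hung on KO replicate 2, at 67.8 CPM, without which it was -1.05.

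In astrocytes the genotypes did not overlap for the HSP90 genes and Hspb1, and none of them passed the test. The WT libraries of Hsp90aa1 (1309 to 1440 CPM) were all above the KO libraries (759 to 911 CPM), and the log2 value was -0.65 (SE 0.19; edgeR adjusted p 0.999). Hsp90ab1 had WT libraries at 846 to 1088 CPM and KO libraries at 777 to 812 CPM, a log2 value of -0.20 (SE 0.19; adjusted p 0.999). For Hspb1 the WT range was 6.83 to 15.4 CPM and the KO range 3.07 to 4.82, a log2 value of -1.42 (SE 0.48; adjusted p 0.999). These were 3 of 9 members with all KO below all WT astrocytes, an order found for 5.74% of the genes tested. In microglia the same genes overlapped between the genotypes, with log2 values of -0.55 (SE 0.29) for Hsp90aa1, -0.30 (SE 0.20) for Hsp90ab1 and -1.92 (SE 0.77) for Hspb1 at edgeR adjusted p of 0.719, 0.780 and 0.620. Without WT replicate 1 these log2 values were -0.18, -0.12 and 0.37, so that of Hspb1 turned its sign.

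Hspa8 and Hspa5 had overlapping values in the genotypes. In microglia Hspa8 was at 4826 ± 1330 CPM in WT and 4498 ± 424 in KO, and at 762 ± 159 and 791 ± 174 in astrocytes (SD, n = 3 each), log2 values of -0.13 (SE 0.22) and 0.16 (SE 0.20). Hspa5 was at 2002 ± 371 and 1918 ± 224 CPM in microglia and at 323 ± 74.3 and 376 ± 66.8 in astrocytes (SD, n = 3 each), log2 values of -0.09 (SE 0.20) and 0.33 (SE 0.20). Neither gene passed in either cell type, and in microglia both changed sign without WT replicate 1, to 0.11 and 0.08.

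The difference of the genotype effect between the cell types was tested in 1 fit of all 12 libraries. None of the 7 members read passed, nor did any other gene of the 17294 fitted (0% called by edgeR; 1102 genes at an unadjusted p under 0.05; 62 called by DESeq2). Counted as astrocytes minus microglia, the difference was 1.12 (SE 0.44; edgeR adjusted p 0.709) for Hsph1 and 1.59 (SE 0.79; adjusted p 0.812) for Dnajb1, with a median of 0.16 over all genes. Single animals moved both values: Hsph1 was at 0.56 without WT replicate 1, and Dnajb1 at 0.96 without WT replicate 1 and 0.26 without KO replicate 2. The test was not read for Hspa1a and Hspa1b, which were picked on the effects it compares.

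No companion gene was called between the genotypes in either cell type or for the difference between them, by edgeR. Of the tested ones, 102 in microglia and 100 in astrocytes, 6 and 2 had an unadjusted p under 0.05. Fkbp5 had the smallest adjusted p of the companion genes in microglia, 0.542: it was at 75.7, 79.1 and 84.1 CPM in WT and 138, 114 and 132 in KO, a log2 fold change of 0.66 (SE 0.18). In astrocytes Fkbp5 was at 15.2, 22.4 and 20.1 CPM in WT and 37.8, 22.7 and 34.6 in KO, a log2 value of 0.81 (SE 0.28; edgeR adjusted p 0.999). The KO libraries of Fkbp5 were above the WT libraries in both cell types, against the order of Hspa1a. Manf, a secreted protein of the unfolded protein response, was at 83.5, 104 and 117 CPM in WT and 143, 163 and 158 in KO microglia (0.59, SE 0.19; edgeR adjusted p 0.572). Sdf2l1 was at 4.32, 1.87 and 6.29 CPM in WT and 15.4, 15.7 and 5.65 in KO astrocytes, which overlap (1.74, SE 0.59; adjusted p 0.999). Hsf2 in microglia (0.36, or 0.17 without WT replicate 1) and Hsf1 in astrocytes (-0.17) were the heat shock factors with the smallest p.

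The immediate early genes mostly had the other sign. In microglia 14 of 16 had a log2 fold change above 0, with a median of 0.24, and without WT replicate 1 all 16 did, with a median of 0.55; none was called. Dusp1, a phosphatase of this list, was at 394, 238 and 380 CPM in WT and 457, 690 and 523 in KO microglia (0.70, SE 0.23; edgeR adjusted p 0.587). Of the markers of other cells in the microglia libraries, 9 of 9 astrocyte markers had a log2 value below 0 (median -0.63, none called), and they summed to 329 to 747 CPM in WT and 364 to 392 in KO. The same held for 7 of 7 endothelial and mural markers tested (median -0.99; the 8 listed summed to 35.9 to 78.0 CPM in WT and 26.6 to 40.7 in KO) and for 4 of 5 choroid plexus and ependymal markers (median -1.21; a sum of 846 to 2127 CPM in WT and 344 to 867 in KO), none of them called. Without WT replicate 1 the medians of the 3 lists were -0.62, -0.76 and -1.37. Of the oligodendrocyte markers 6 of 10 were above 0 (median 0.16, or 0.29 without WT replicate 1). Neuron markers and macrophage and neutrophil markers had 2 of 6 above 0 each (medians -0.14 and -0.27). Without WT replicate 1 their medians were -0.31 and -0.49. The 2 oligodendrocyte precursor markers tested were below 0. The part of these marker lists in the chaperone values was not tested.

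Genes with a pattern like that of Hspa1a were sought among the 13087 others tested in both cell types, by the correlation of log2 CPM over the 12 libraries after the mean of each cell type was removed. The 5 highest were Nup210 (r = 0.952), a nuclear pore glycoprotein, Abl1 (0.947), a tyrosine kinase, Hspa1b (0.941), Eml3 (0.925), a microtubule-binding protein, and Kdm4b (0.919), a histone demethylase. These values describe 12 libraries that come from 6 animals and share WT replicate 1 of microglia as the highest point. Over the 10 libraries without that animal they were 0.943, 0.927, 0.872, 0.849 and 0.880, at ranks 5, 19, 106, 173 and 86. Nup210 was at 65.4, 35.4 and 35.9 CPM in WT and 19.8, 26.4 and 26.0 in KO microglia, and at 4.89, 3.25 and 4.72 in WT and 2.21, 0.651 and 4.37 in KO astrocytes. Among the members, Hspb1 ranked 124th (0.816) and Hsph1 187th (0.792), Hsp90aa1, Hsp90ab1 and Hspa8 had r of 0.661, 0.644 and 0.597, and Dnajb1 and Hspa5 came lowest at 0.333 and 0.303. Without that animal Hsph1 was at 0.806 (rank 351) and Hspb1 at 0.553 (rank 2203). Hsp90aa1 was then at 0.237, Hsp90ab1 and Hspa8 at 0.0986, Hspa5 at -0.243 and Dnajb1 at -0.290.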

How the data were processed

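RNA was sequenced from 12 libraries, 6 of microglia and 6 of astrocytes, with full-length cDNA amplified without molecular identifiers. The authors deposited estimated counts per gene symbol, 1 table per cell type; per the submitters' processing notes STAR 2.7.10b, RSEM 1.3.3, limma and GRCm39 were used, while no source used here names the annotation. Of the values above 0, 3.44% to 5.27% were not whole at a tolerance of 0.001. Counts were rounded, and CPM were taken over the library total and not per gene length, so levels are not compared between genes.

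Tests were edgeR 4.0.16 quasi-likelihood fits in R 4.3.3 (TMM, filterByExpr with a minimum count of 10, Benjamini-Hochberg over all genes tested, called under 0.05), on the 6 libraries of a cell type for the genotype, and on all 12 libraries for the cell types and for the difference of effects. The standard error is the log2 change over the square root of F. All 9 members passed the filter in each of these fits. The script was tested on simulated data. Alternatives were DESeq2 1.42.0, its size factors, limma 3.58.1 voom with quality weights, library totals, no filter and a minimum count of 50, thinned counts, the abundant non-coding transcripts left out, each replicate left out, a replicate or animal block, and Hspa1a and Hspa1b summed.

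The labels number the animals, which pairs each microglia library with an astrocyte library; within a pair, deviations from the means of the groups had correlations of 0.00224 to 0.0929 across genes. Replicates of a group differed far beyond sampling noise (chi-square per degree of freedom 32.0 to 127). The members and lists were chosen with earlier results of these data known. Named companion genes are, per list, the called genes with the smallest p (at most 3 per direction) or, where none was called, the gene with the smallest p. Sequences are RefSeq's on GRCm38.p6, another build than that of the counts, and were matched by symbol.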

Additional observations from a re-analysis of the deposited data

How the results depend on the processing

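Most values kept their direction and their side of the threshold. Of 289 values recomputed for the genotype in microglia 281 did so, as did 284 of 289 in astrocytes. The same held for 47 of 48 for the difference of effects and 696 of 720 between the cell types. Between the genotypes edgeR called no gene in the main fits, so these counts say little about the size of a value. In microglia without WT replicate 1 Dnajb1 counted as kept at -0.76 against -1.41, and Hsp90aa1 at -0.18 against -0.55. Hspa1a and Hspa1b have no test between the genotypes. Their values there counted as kept if they moved by less than the pooled SD of log2 CPM within the groups. That SD includes WT replicate 1. The counts of genes called were the least stable. In microglia edgeR called 0 genes, DESeq2 41, the fit without a filter 121, the replicate block 30, the fit of all 12 libraries 41, and leaving out 1 replicate gave 0 to 2 (2 without KO replicate 2). In astrocytes 0 became 4 with DESeq2, 17 without a filter and 0 to 1 over the replicates left out. For the difference of effects 0 became 62, 160 and 0 to 6 (1 without WT replicate 2, 6 without KO replicate 3). Of the 7 members read from the genotype test, those called in microglia went from 0 to 1 with DESeq2 (Hsph1) and 3 without a filter (Hsph1, Dnajb1 and Hspb1); the cause was not tested. Among the values recomputed, which for the difference of effects are those of Hsph1, Dnajb1 and Serpinh1, signs turned for 5. In microglia, over the replicates left out, Hspa8 ran from -0.30 to 0.11, Hspb1 from -2.42 to 0.37 and Hspa5 from -0.19 to 0.077, each above 0 only without WT replicate 1. In astrocytes Dnajb1 (0.05) was -0.77 with voom, -0.18 with library totals, -0.36 with the replicate block and -1.05 to 0.44 over the replicates left out. Between the cell types Hsph1 (-0.34) was 0.20 in the WT libraries alone and -0.83 (edgeR adjusted p 0.0240) in the KO libraries alone, a call as lower in microglia. The labels state no pairing of same-numbered WT and KO animals. Deviations of same-numbered libraries correlated at 0.06 to 0.25 in microglia and -0.02 to 0.27 in astrocytes. Libraries of 1 animal, which are paired, correlated at only 0.00224 to 0.0929. Such correlations therefore cannot decide whether same-numbered animals share anything. The floor for a count of 0 is 3 counts, or 0.193 to 0.291 CPM, and covers counting error only; no member was near it.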
